A study of Mus musculus with 16 samples.

Results

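Matrix metalloproteinases (MMPs) and Timp1 were followed in mouse skin under chronic ultraviolet B (UVB) exposure. The members are 10 genes of the 24421 in the deposited table, chosen by name across the family's roles: the collagenases Mmp13 and Mmp8, the stromelysins Mmp3, Mmp10 and Mmp11, the macrophage elastase Mmp12, the gelatinases Mmp9 and Mmp2, the membrane-type enzyme Mmp14, and Timp1, a tissue inhibitor of metalloproteinases. All of them are in the table.

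RNA was sequenced from female mice of SKH-1, a hairless strain used in photocarcinogenesis work. The UVB dose was 60 mJ/cm2, given in 2 sessions a week, and unexposed controls received no agent. The groups were UVB and control epidermis at week 2, UVB and control epidermis at week 15, UVB and control epidermis at week 25, and, at week 25, UVB tumors and whole skin of control mice, with 2 libraries (numbered 0 and 1) in each of the 8 groups. Whether both libraries of a group are from different mice is not said in the labels. The p-values therefore measure only the spread between these libraries, which could be technical.

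MMPs are zinc-dependent endopeptidases that are made as inactive proenzymes and, once activated, cut collagens, gelatins, proteoglycans and other matrix and cell-surface proteins. TIMPs bind the active site and block it. In skin, keratinocytes at a wound edge, fibroblasts, macrophages and neutrophils are known sources, and several of the genes are known to respond to AP-1, a transcription factor of Fos and Jun proteins.

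Mmp13, Mmp12, Mmp3, Mmp10 and Mmp8 lie in this order, all on the plus strand, in 1 cluster on chromosome 9, in the deposited mm10 coordinates: Mmp13 at chr9:7272514-7283333, Mmp12 at chr9:7347374-7360461, Mmp3 at chr9:7445822-7455974, Mmp10 at chr9:7502342-7510242 and Mmp8 at chr9:7558429-7568486. The others are spread over the genome, Mmp2 at chr8:92827328-92853420, Mmp9 at chr2:164948219-164955849, Mmp11 at chr10:75923222-75932502 on the minus strand, Mmp14 at chr14:54431604-54441258 and Timp1 at chrX:20870166-20874737. The exons of no member overlap those of another gene in the table. Timp1 lies within the span of Syn1, which is on the other strand. Mmp3 and Mmp10 are close paralogs that share 140 stretches of 50 bases, of 1752 in the annotated Mmp3 transcripts and 1673 in those of Mmp10, so reads may be split between them and their values are uncertain to that extent.

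Promoter windows of 300 bases (250 before to 50 after the start, RefSeq, GRCm38.p6) were in the table for Mmp13, Mmp12, Mmp3, Mmp10, Mmp8, Mmp11, Mmp14 and Timp1. They were searched on both strands for the AP-1 letters TGANTCA and for AGGAAG, the letters bound by ETS-family factors. The 2 motifs do not overlap each other. TGANTCA was in the windows of Mmp13, Mmp3 and Mmp10 and in 1 of the 2 windows listed for Mmp12. It was not among the letters of the windows of Mmp8, Mmp11, Mmp14 or Timp1. Of all 32851 windows in the table, 2565 (7.81%) hold it. The 4 windows with the motif are shown. Any relation of the motif to the members' levels was not tested. Capitals mark the TGANTCA match, whose first base is at -35 from the start in Mmp13, -44 in Mmp12, -46 in Mmp3 and -63 in Mmp10. A match describes the letters and does not show binding. The windows are chr9:7272264-7272563 (Mmp13), chr9:7347124-7347423 (Mmp12), chr9:7445572-7445871 (Mmp3) and chr9:7502092-7502391 (Mmp10), all on the plus strand.

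Mmp13: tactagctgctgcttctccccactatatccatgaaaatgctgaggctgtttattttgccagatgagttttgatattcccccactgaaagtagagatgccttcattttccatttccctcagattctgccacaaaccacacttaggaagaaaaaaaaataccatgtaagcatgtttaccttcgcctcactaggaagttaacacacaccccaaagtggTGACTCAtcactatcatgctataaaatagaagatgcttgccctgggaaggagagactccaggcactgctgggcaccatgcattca
Mmp12: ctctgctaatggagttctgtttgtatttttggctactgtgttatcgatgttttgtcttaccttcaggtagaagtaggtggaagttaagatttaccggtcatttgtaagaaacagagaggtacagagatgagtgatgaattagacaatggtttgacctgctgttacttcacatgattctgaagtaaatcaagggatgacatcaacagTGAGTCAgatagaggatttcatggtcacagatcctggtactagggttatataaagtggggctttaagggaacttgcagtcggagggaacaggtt
Mmp3: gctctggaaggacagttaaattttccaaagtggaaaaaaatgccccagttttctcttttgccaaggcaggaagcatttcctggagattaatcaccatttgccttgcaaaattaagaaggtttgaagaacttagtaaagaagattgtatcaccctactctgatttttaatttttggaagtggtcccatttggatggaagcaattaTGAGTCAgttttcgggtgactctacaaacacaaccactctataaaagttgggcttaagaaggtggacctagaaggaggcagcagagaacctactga
Mmp10: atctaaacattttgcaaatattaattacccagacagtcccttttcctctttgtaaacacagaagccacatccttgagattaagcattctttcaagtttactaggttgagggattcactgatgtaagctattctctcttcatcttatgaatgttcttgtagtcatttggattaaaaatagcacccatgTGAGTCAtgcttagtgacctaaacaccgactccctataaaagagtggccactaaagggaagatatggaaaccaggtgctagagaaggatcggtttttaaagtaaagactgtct

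AGGAAG was more common, in 11613 of the 32851 windows (35.4%). The Timp1 window held 3 copies, beginning at -175, -99 and 40, and the Mmp13 window held 2, beginning at -109 and -62. The windows of Mmp3, Mmp8 and Mmp14 and the other window of Mmp12 (chr9:7344147-7344446) held 1 each.

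Library totals ran from 2905165 counts (week 2 control 1) to 7959503 (whole skin 0). The libraries of a group were further apart than counting noise in each case, the chi-square per degree of freedom being lowest in tumors (4.62) and highest in whole skin (46.2). The 2 whole skin libraries stand apart from each other, also in the cell type markers given with the tumor results. Keratinocyte marker sums (Krt5, Krt14 and 6 other genes) were 2593 to 3974 CPM, counts scaled to a common library size, in all 16 libraries. The common size is TMM-scaled. Calls rest on edgeR's quasi-likelihood test with p-values adjusted by Benjamini and Hochberg's procedure across every gene tested, at a threshold of 0.05, and log2 fold changes carry the standard error (SE) of the fit. Low counts left Mmp8 out of every test and Mmp11 out of the tests among epidermis groups.

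At week 25 of exposure, transcripts of the collagenase Mmp13, the stromelysin Mmp3, the elastase Mmp12, the gelatinase Mmp9 and the membrane-type Mmp14 were higher in UVB epidermis than in control epidermis. Of the 10 members, these 5 rose and 0 fell, where 21.5% of the 13478 genes tested were called (10.6% up and 10.9% down). The other members had no call or no test. Both UVB libraries were above both control libraries for 8 of the 10 members, as for 37.1% of the genes tested (33.4% were below), and the libraries overlapped for Mmp2 and Mmp8.

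Mmp13, which cleaves fibrillar collagens and is the main interstitial collagenase of rodents, stood at 71.9 and 32.0 CPM in UVB epidermis at week 25 (471 and 179 counts), against 0.337 and 0.770 CPM (2 and 5 counts) in control epidermis. The groups are far apart although the UVB libraries differ. The log2 fold change was 6.45 ± 0.76 (adjusted p = 0.00149). Mmp8, known as the neutrophil collagenase, had 2 and 0 counts in UVB epidermis and 2 and 1 counts in control epidermis. At this depth no difference in Mmp8 was detectable.

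Mmp3 (stromelysin 1), which degrades proteoglycans and basement membrane proteins and can activate other proenzymes, was at 30.5 and 8.75 CPM in UVB epidermis and 1.01 and 0.924 CPM in control epidermis at week 25. The UVB libraries lie above both controls, library 0 by the wider margin. The log2 fold change was 4.29 ± 0.78 (adjusted p = 0.00614). Its paralog Mmp10 (stromelysin 2), a product of wound-edge keratinocytes, was at 6.26 and 3.39 CPM in UVB epidermis and 1.01 and 2.46 CPM in control epidermis. The groups do not overlap, yet Mmp10 had no call (1.43 ± 0.60, adjusted p = 0.111). Mmp11 (stromelysin 3), known from tumor stroma, had 14 and 3 counts in UVB epidermis and 1 and 1 in control epidermis, a ratio of 8.69 with a 95% counting interval of 2.06 to 77.5.

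Mmp12, an elastase best known from macrophages, stood at 8.85 and 6.25 CPM in UVB epidermis at week 25, against 0.506 and 0.154 CPM (3 and 1 counts) in control epidermis. Its log2 fold change was 4.43 ± 0.75 (adjusted p = 0.00474). The gelatinase Mmp9, which cleaves type IV collagen, was at 76.0 and 15.9 CPM in UVB epidermis and 5.57 and 5.54 CPM in control epidermis. The controls lie close together, while UVB library 0 is well above UVB library 1. The log2 fold change of Mmp9 was 3.02 ± 0.60 (adjusted p = 0.00815).

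Mmp2, the gelatinase made by many mesenchymal cells, was at 92.0 and 27.5 CPM in UVB epidermis and 51.8 and 87.8 CPM in control epidermis at week 25. These groups overlap, and Mmp2 had no call (-0.24 ± 0.55, adjusted p = 0.786). Mmp14, a membrane-anchored enzyme that activates pro-Mmp2, was at 46.7 and 45.9 CPM in UVB epidermis and 22.4 and 15.9 CPM in control epidermis. It rose by a log2 fold change of 1.25 ± 0.29 (adjusted p = 0.0149). The inhibitor Timp1 was at 4.73 and 3.22 CPM in UVB epidermis and 0.675 and 0.924 CPM in control epidermis. The UVB libraries were the higher ones, with a log2 fold change of 2.26 ± 0.76 (adjusted p = 0.0551) and no call.

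**Figure D1:**
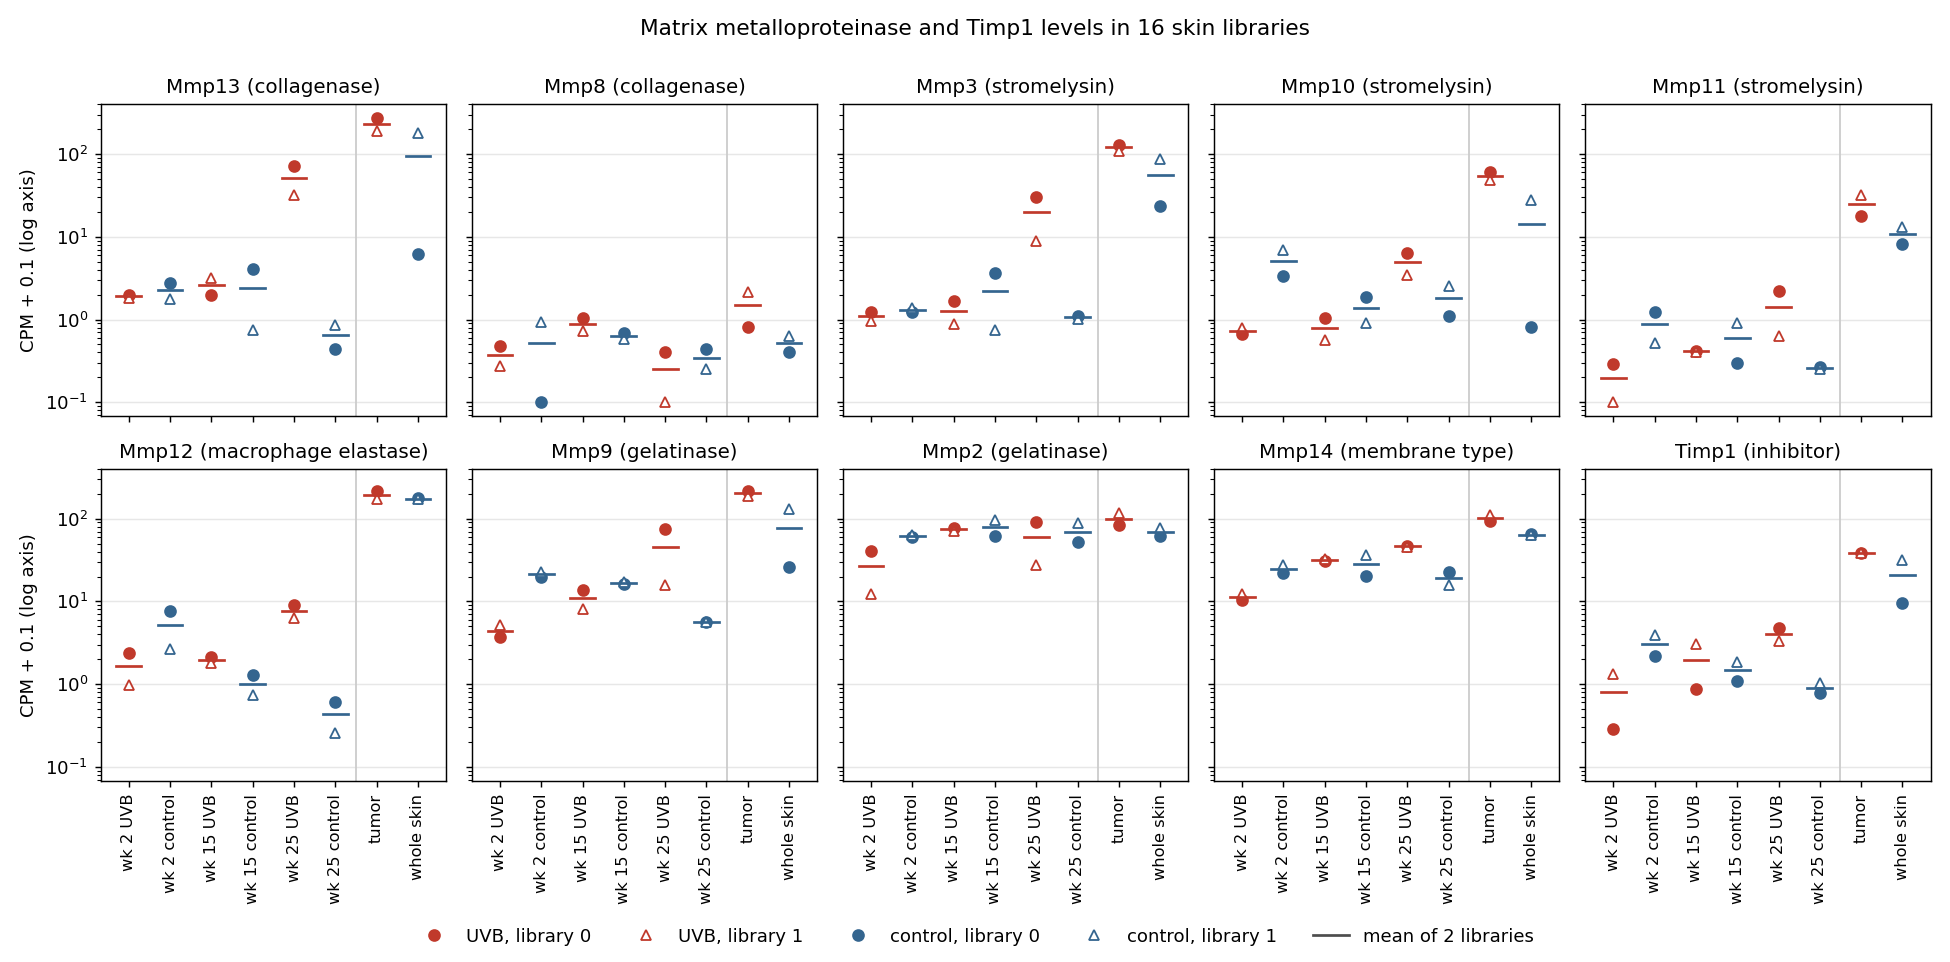
Levels of the 10 members in 16 libraries, as CPM plus 0.1 on a log axis shared by all panels. The x axis gives the 6 epidermis groups and, right of the grey line, tumors and whole skin; circles are library 0, triangles library 1 and horizontal bars the mean of 2 libraries. Mmp13 stands at 71.9 and 32.0 CPM in UVB epidermis at week 25, against 0.337 and 0.770 CPM in control epidermis.

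The calls of Mmp3, Mmp9 and Mmp14 at week 25 depended on single libraries. Without UVB library 0, or without control library 1, 2 of the 10 members rose, in both cases Mmp13 (5.74 and 7.14) and Mmp12 (4.14 and 3.81).

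Fibroblast and macrophage markers moved with these values, while 0 of 6 T cell markers were called (median log2 fold change 0.15). The summed level of 10 fibroblast markers was 284 and 144 CPM in UVB epidermis at week 25 and 69.7 and 72.5 CPM in control epidermis, and 8 of the 10 rose. Thy1 was the largest part of these sums, at 82.7 and 73.1 CPM in UVB epidermis and 52.6 and 55.0 CPM in control epidermis. For 10 macrophage markers the sums were 171 and 128 CPM in UVB epidermis and 39.5 and 33.6 CPM in control epidermis, and again 8 of the 10 rose. The macrophage genes Mrc1 and Msr1 were at 0 in control library 1, and Msr1 also in control library 0. Library 0 of the UVB pair, the higher one for Mmp13, Mmp3 and Mmp9, is also the higher one for both marker sums. Of 10 neutrophil markers 9 are in the table, with sums of 65.3 and 68.2 CPM in UVB epidermis and 45.0 and 80.1 CPM in control epidermis. Most of that sum was Cxcr2 (54.8 and 60.4 CPM in UVB epidermis, 40.1 and 75.3 CPM in control epidermis), while Elane and Camp were at 0 in both UVB libraries and Elane in both controls. The part of these cells in the MMP values was not tested. In bulk RNA, a change in the number of cells of a type and a change in RNA per cell cannot be told apart.

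**Figure D2:**
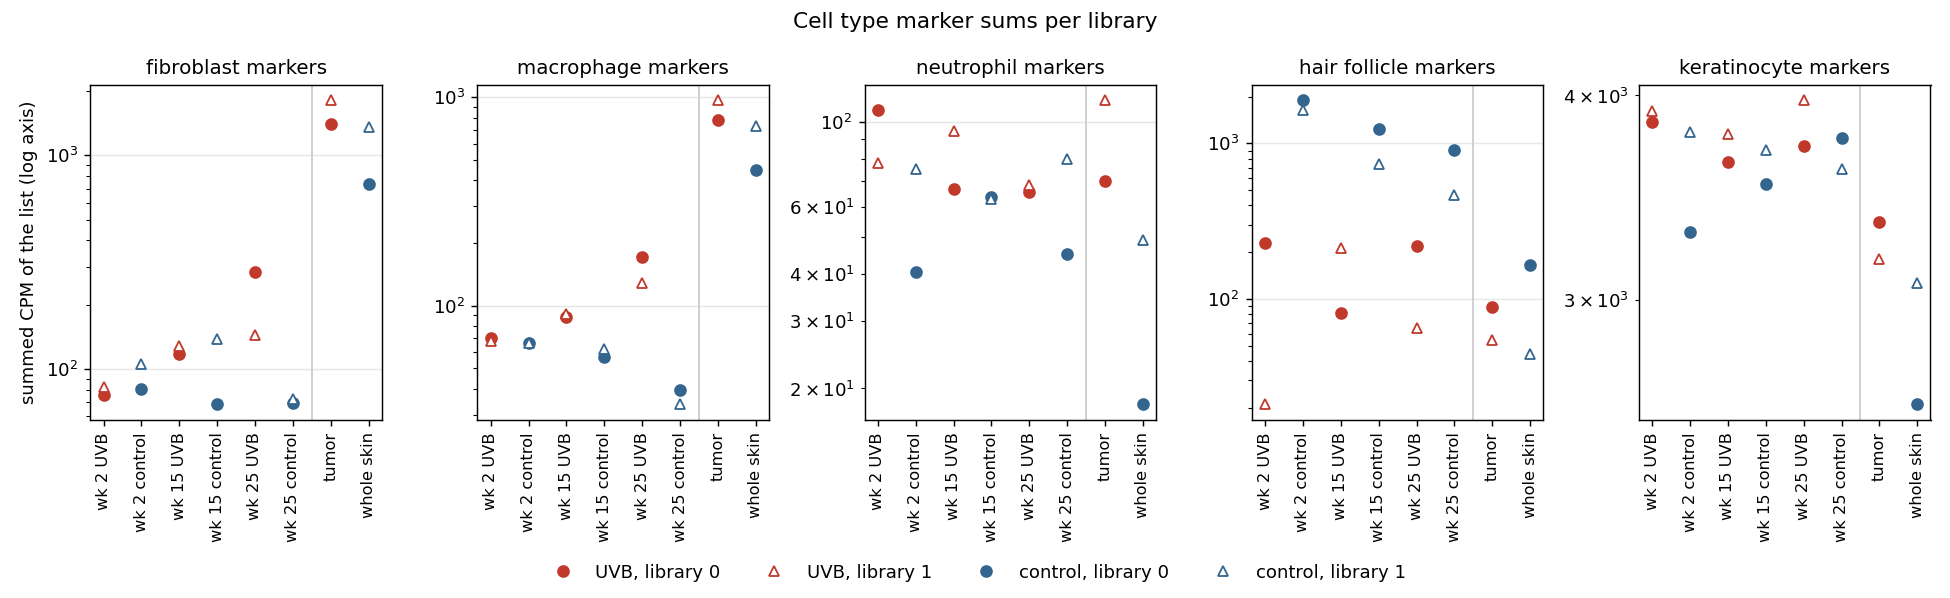
Summed CPM of 5 marker lists per library, each panel on its own log axis, with groups and symbols as in the plot of member levels. Fibroblast sums were 284 and 144 CPM in UVB epidermis at week 25, against 69.7 and 72.5 CPM in control epidermis, with Thy1 the largest gene in each. Hair follicle sums were 230 and 21.0 CPM in UVB epidermis at week 2, against 1898 and 1637 CPM in control epidermis.

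After 2 weeks the direction was the other one. Of the 10 members, 0 rose and 3 fell (Mmp10, Mmp9 and Mmp14), where 17.8% of the 13478 genes tested were called (8.09% up and 9.74% down). The counts were the same by DESeq2, and 5 members had an unadjusted p under 0.05. Both UVB libraries were below both controls for 8 of the 10 members, as for 28.9% of the genes tested (31.4% were above), and Mmp13 and Mmp8 overlapped. The 10 include Mmp8 and Mmp11, which were not tested. For Mmp3 (6 and 5 counts in UVB epidermis, 6 and 3 in control epidermis) and Mmp11 (1 and 0, against 6 and 1) the order rests on library size.

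Mmp10 was at 0.565 and 0.694 CPM (3 and 4 counts) in UVB epidermis at week 2 and at 3.23 and 6.77 CPM in control epidermis, a log2 fold change of -2.90 ± 0.74 (adjusted p = 0.0233). Mmp9 was at 3.58 and 5.03 CPM in UVB epidermis and 19.4 and 22.9 CPM in control epidermis (-2.31 ± 0.63, adjusted p = 0.0306). Mmp14 was at 10.2 and 12.2 CPM in UVB epidermis and 22.1 and 27.5 CPM in control epidermis (-1.17 ± 0.31, adjusted p = 0.0278). In each of these genes both UVB libraries lie below both controls, and the controls of Mmp10 are the most spread relative to their level.

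Among the members with no call, Mmp12 was at 2.26 and 0.868 CPM in UVB epidermis at week 2 and 7.61 and 2.54 CPM in control epidermis (-1.81 ± 0.63, adjusted p = 0.0692). Timp1 had 1 and 7 counts in UVB epidermis and 11 and 9 in control epidermis (-1.96 ± 0.85, adjusted p = 0.128). Mmp2 was at 40.5 and 12.3 CPM in UVB epidermis and 59.3 and 62.7 CPM in control epidermis (-1.24 ± 0.58, adjusted p = 0.151). The UVB libraries of Mmp2 differ more from each other than the controls do. Mmp3 and Mmp13 lay at 0.868 to 1.88 CPM in UVB epidermis and 1.14 to 2.66 CPM in control epidermis, with log2 fold changes of -0.27 and -0.37. Mmp11 had 1 and 0 counts in UVB epidermis and 6 and 1 in control epidermis, a ratio of 0.0983 (0.00218 to 0.765).

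The week 2 calls also depended on single libraries: 0 members were called without UVB library 0 or without UVB library 1, and 1 (Mmp12, -2.29) without control library 1. The hair follicle marker sum was 230 and 21.0 CPM in UVB epidermis at week 2 and 1898 and 1637 CPM in control epidermis, with 8 of 10 markers called lower. Hair follicle markers were lower in UVB epidermis at the later weeks too. At week 15, 5 of 10 were called lower (sums of 81.8 and 214 CPM in UVB epidermis, 1231 and 742 CPM in control epidermis). At week 25, 5 of 10 were called lower (219 and 64.7 CPM in UVB epidermis, 907 and 465 CPM in control epidermis). Fibroblast sums (75.5 and 82.6 CPM in UVB epidermis, 80.6 and 106 CPM in control epidermis) and macrophage sums (70.0 and 67.9 CPM, against 66.4 and 66.0 CPM in control epidermis) were nearer to each other, but the genes within them were not. The median log2 fold change of the 9 fibroblast markers tested was -2.22 at week 2, with 1 called lower (Dcn, -2.33) and 1 called higher (Fbln1, 1.25), beside a median of -0.028 over all genes tested. Fbln1 made up 42.1 and 40.3 CPM of the sums in UVB epidermis and 17.7 and 16.1 CPM in control epidermis. For the 10 macrophage markers the median was -0.59, with 1 called lower (Lyz2, -2.18) and 1 higher (Cd68, 0.72). The part of these cells in the week 2 MMP values was not tested.

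By week 15, 0 of the 10 members were called in edgeR's test, where 3.49% of genes were (1.85% up and 1.64% down), and 0 had an unadjusted p under 0.05 or a call by DESeq2. Mmp13 was at 1.88 and 3.10 CPM in UVB epidermis and 3.95 and 0.644 CPM in control epidermis. Mmp9 was at 13.8 and 8.06 CPM in UVB epidermis and 16.2 and 16.9 CPM in control epidermis. The controls of Mmp13 bracket its UVB libraries, whereas both Mmp9 controls lie above them. Mmp12, at 2.03 and 1.71 CPM in UVB epidermis and 1.18 and 0.644 CPM in control epidermis, had the largest fitted difference (1.03 ± 0.71, adjusted p = 0.458). Timp1, with 5 and 19 counts in UVB epidermis and 5 and 11 in control epidermis, gave 0.40 ± 0.75. Fitted log2 fold changes of the other tested members ran from -0.84 (Mmp10) to 0.16 (Mmp13).

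**Figure D3:**
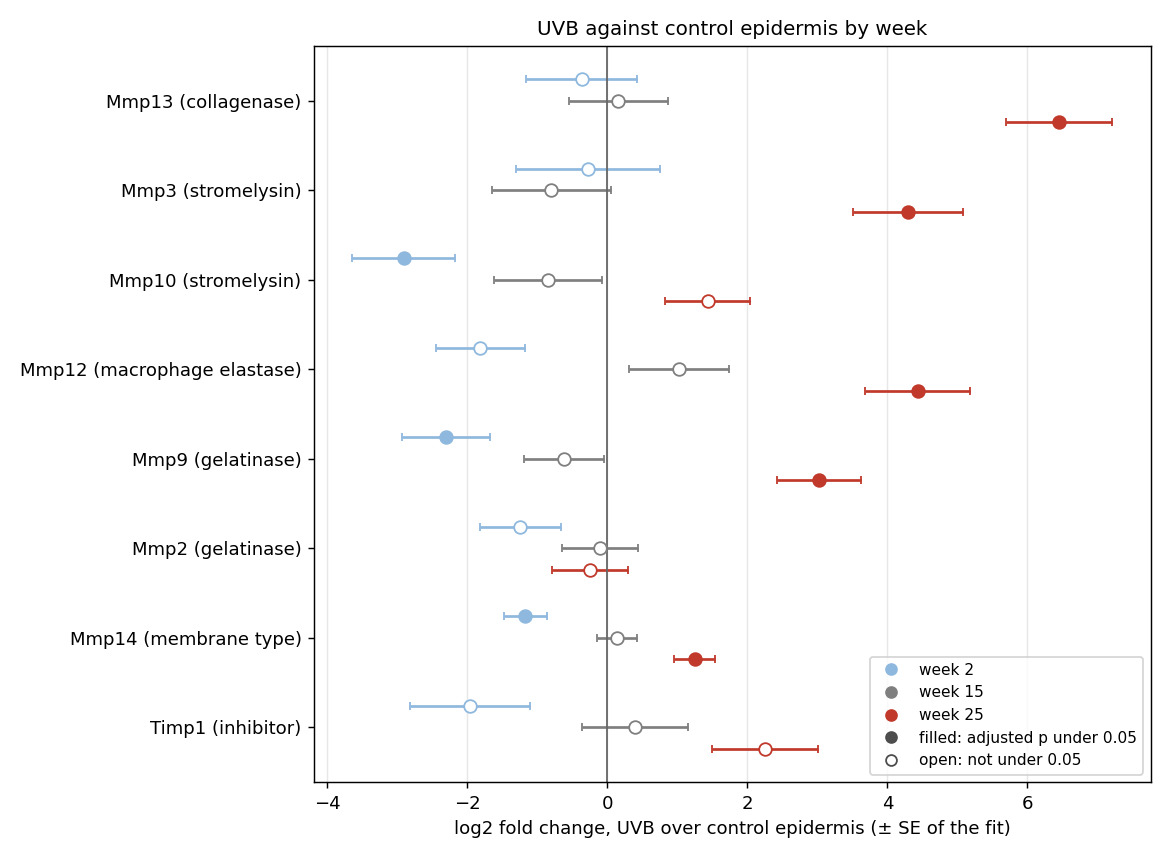
Log2 fold change, UVB over control epidermis, of the 8 members tested, with the SE of the fit as bars, at weeks 2 (light blue), 15 (grey) and 25 (red). Filled points have an adjusted p under 0.05. Mmp10, Mmp9 and Mmp14 are filled and negative at week 2 (-2.90, -2.31 and -1.17); Mmp13, Mmp3, Mmp12, Mmp9 and Mmp14 are filled and positive at week 25 (6.45, 4.29, 4.43, 3.02 and 1.25).

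The change of the UVB effect between weeks was tested directly. From week 2 to week 25 the effect was higher for 6 of the 10 members and lower for 0, where 7.92% of genes tested were called (3.33% up and 4.59% down). Mmp13 differed by 6.82 ± 1.14 on the log2 scale (adjusted p = 0.0125) and Mmp12 by 6.24 ± 0.98 (adjusted p = 0.0103). For Mmp9 the difference was 5.33 ± 0.87 (adjusted p = 0.0114) and for Mmp14 2.41 ± 0.42 (adjusted p = 0.0138). Mmp10 (4.34 ± 0.95, adjusted p = 0.0247) and Timp1 (4.22 ± 1.14, adjusted p = 0.0471) were called here although neither was called at week 25 itself. Over 19 alternative fits the call was lost in 14 for Timp1 and in 8 for Mmp10. It was lost in 4 for Mmp14, 3 for Mmp13 and 2 each for Mmp9 and Mmp12. Week 25 UVB epidermis overlapped week 2 control epidermis for both Mmp10 and Timp1. Mmp10 was at 6.26 and 3.39 CPM in the former and 3.23 and 6.77 CPM in the latter. Timp1 was at 4.73 and 3.22 CPM in the former and 2.09 and 3.81 CPM in the latter. Mmp3 (4.57 ± 1.34, adjusted p = 0.059) and Mmp2 (1.0 ± 0.79, adjusted p = 0.427) had no call. The count fell to 0 of 10 without week 2 UVB library 1 or without week 25 control library 1, and to 3 without week 2 UVB library 0 or without week 25 UVB library 0.

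Between weeks 2 and 15, edgeR's test called 0 of all 13478 genes for a change of the UVB effect (0%), the smallest adjusted p being 0.205. Unadjusted p-values under 0.05 were found for 1190 genes, 2 of them members, and DESeq2 called 49 genes and 0 members. Averaged over the 3 weeks, UVB epidermis differed from control epidermis in 0 of the 10 members, against 29.5% of all genes, with 0 members at an unadjusted p under 0.05 and 0 called by DESeq2. Mmp13 had the largest average, 2.05 ± 1.06 (adjusted p = 0.165).

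The control libraries themselves changed with time. In control epidermis at week 25 against week 2, 1 of the 10 members fell and 0 rose, where 13.7% of genes were called (8.47% up and 5.24% down). Mmp12 was at 0.506 and 0.154 CPM in week 25 controls and 7.61 and 2.54 CPM in week 2 controls (-3.96 ± 0.77, adjusted p = 0.0144). The count was 0 without week 25 control library 0 or 1, and 2 without week 25 UVB library 0 or 1. Mmp9 was at 5.57 and 5.54 CPM in week 25 controls and 19.4 and 22.9 CPM in week 2 controls, with no call (-1.91 ± 0.61, adjusted p = 0.0569). Also with no call, Mmp13 (-1.98), Timp1 (-1.77), Mmp10 (-1.43), Mmp14 (-0.36) and Mmp3 (-0.28) were lower and Mmp2 (0.20) higher. The UVB effects at weeks 2 and 25 are each read against the controls of the same week.

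Per kilobase of exon, Mmp2 was the most abundant MMP in every control epidermis library, with 17.0 to 31.3 CPM per kilobase. In UVB epidermis at week 25 it stood at 30.3 and 9.04 CPM per kilobase, beside Mmp13 at 26.9 and 12.0, Mmp9 at 23.95 and 5.01, Mmp14 at 18.0 and 17.7 and Mmp3 at 17.0 and 4.86. The summed level of the 9 MMP genes was 123 and 52.5 CPM per kilobase in UVB epidermis at week 25 and 29.0 and 39.1 in control epidermis. Mmp2 made up 24.6% and 17.2% of the sum in UVB epidermis and 58.6% and 73.8% in control epidermis. At week 2 the sum was 20.9 and 12.2 CPM per kilobase in UVB epidermis and 40.2 and 44.9 in control epidermis. At week 15 it was 44.7 and 41.0 in UVB epidermis and 38.2 and 52.4 in control epidermis. Timp1 was at 5.32 and 3.61 CPM per kilobase in UVB epidermis at week 25 and 0.758 and 1.04 in control epidermis.

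**Figure D4:**
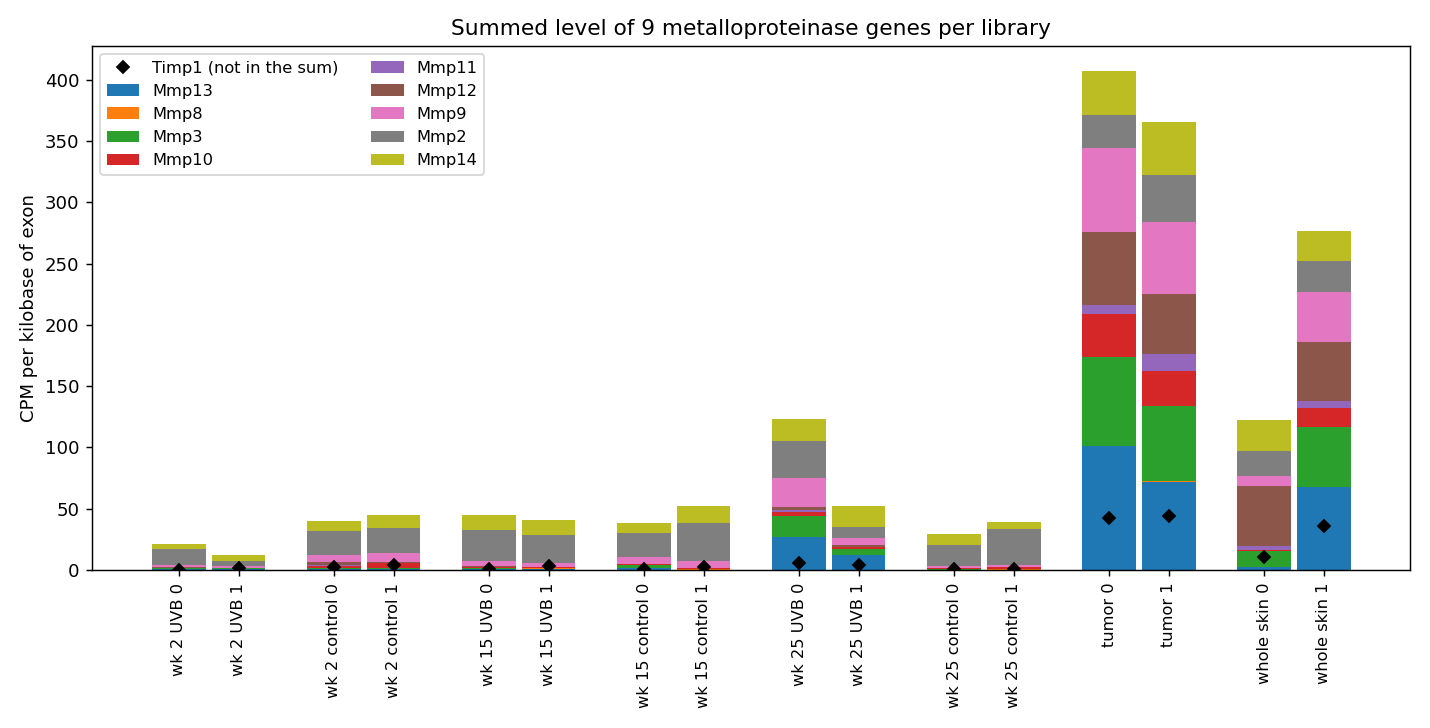
Summed CPM per kilobase of exon of the 9 MMP genes in each library, stacked by gene, with Timp1 as a black diamond outside the sum. The 2 tumors reach 407 and 366 and the 2 whole skin libraries 123 and 277; UVB epidermis at week 25 reaches 123 and 52.5 and control epidermis 29.0 and 39.1.

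Tumors had the highest mean of the 8 groups for each of the 10 members. Their libraries overlapped those of the next group for Mmp2 (control epidermis at week 15), Mmp8 (UVB epidermis at week 15) and Mmp12 (whole skin). Tumors and whole skin of control mice were set against each other in a fit of their 4 libraries, and 0 of 14661 genes (0%) were called. At an unadjusted p under 0.05 there were 813 genes, 2 of them members, and DESeq2 called 63 genes and 0 members. Both tumor libraries were above both whole skin libraries for 9 of the 10 members, as for 22.5% of the genes tested (12.2% were below), and Mmp12 overlapped.

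Mmp13 was at 270.6 and 192 CPM in tumors and at 6.09 and 181 CPM in whole skin. Whole skin library 1 thus lies just under the tumors and library 0 far below. The log2 fold change was 1.25 ± 1.25 (adjusted p = 0.965). Mmp10 showed the same split, with 60.2 and 49.3 CPM in tumors and 0.722 and 27.7 CPM in whole skin (1.93 ± 1.26, adjusted p = 0.922). Mmp3 was at 130.4 and 110.1 CPM in tumors and 23.7 and 86.9 CPM in whole skin (1.06 ± 0.58, adjusted p = 0.911). Mmp9 was at 217 and 188 CPM in tumors and 26.0 and 130 CPM in whole skin (1.32 ± 0.69, adjusted p = 0.911). Each of them has its lower value in whole skin library 0.

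Of the other members, Timp1 was also split between the whole skin libraries, with library 0 the lower one. Mmp11, Mmp14, Mmp12 and Mmp2 were closer between them. Mmp11 was at 18.0 and 32.3 CPM in tumors and 8.15 and 13.2 CPM in whole skin (1.16 ± 0.44, adjusted p = 0.892), and Mmp14 at 92.9 and 111 CPM in tumors and 65.5 and 63.0 CPM in whole skin (0.59 ± 0.21, adjusted p = 0.891). Mmp12, at 214 and 175 CPM in tumors and 177 and 173 CPM in whole skin, gave 0.07 ± 0.22 (adjusted p = 0.995). Mmp2 was at 83.3 and 117 CPM in tumors and 61.8 and 77.3 CPM in whole skin (0.44 ± 0.25, adjusted p = 0.911). Timp1 was at 38.0 and 38.9 CPM in tumors and 9.50 and 31.8 CPM in whole skin (0.84 ± 0.56, adjusted p = 0.922). Mmp8 had 5 and 15 counts in tumors and 3 and 3 in whole skin.

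Without whole skin library 1, log2 fold changes of tumor over whole skin included Mmp10 (6.13), Mmp13 (5.17), Mmp9 (2.88), Mmp3 (2.26) and Timp1 (1.94). Without whole skin library 0 they included Mmp10 (0.92), Mmp11 (0.86), Mmp14 (0.63), Mmp9 (0.58), Mmp3 (0.41), Mmp13 (0.29) and Timp1 (0.21). Calls over all genes moved in such fits too, so the calls are not read as a result about the members. These fits take the lone whole skin library to vary like the tumors. The whole skin libraries also differed in marker sums: library 0 had 732 CPM of fibroblast and 449 CPM of macrophage markers and library 1 had 1355 and 726 CPM, beside 1397 and 1815 CPM of fibroblast and 783 and 969 CPM of macrophage markers in the tumors. Hair follicle markers summed to 165 CPM in whole skin library 0 and 44.4 CPM in library 1. The part of tissue make-up in the members' values was not tested.

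Against UVB epidermis of the same week, 7 of the 10 members were higher in tumors and 0 lower, where 29.5% of the 15126 genes tested were called (16.8% up and 12.7% down). The largest differences were those of Mmp12 (4.68 ± 0.38, adjusted p = 5.76e-06), Mmp11 (4.18 ± 0.64, adjusted p = 0.000375), Mmp10 (3.49 ± 0.99, adjusted p = 0.0169) and Timp1 (3.26 ± 0.65, adjusted p = 0.00216). Mmp3 (2.61 ± 0.64, adjusted p = 0.00731), Mmp9 (2.13 ± 0.65, adjusted p = 0.0244) and Mmp14 (1.14 ± 0.27, adjusted p = 0.00545) also rose. Mmp13 (2.15 ± 0.92, adjusted p = 0.0985) and Mmp2 (0.74 ± 0.51, adjusted p = 0.316) had no call. Mmp8 had 20 counts over both tumors and 2 over both UVB epidermis libraries, a ratio of 8.56 (2.08 to 75.6). Without week 25 UVB epidermis library 1 the count was 3. Tumors and epidermis differ in tissue as well as in lesion, so the tissue and the tumor cannot be told apart here, and fibroblast sums were 1397 and 1815 CPM in tumors and 284 and 144 CPM in UVB epidermis.

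The same kind of gap separated whole skin from epidermis without UVB. In whole skin against control epidermis at week 25, 8 of the 10 members were higher and 0 lower, where 55.6% of genes tested were called (31.9% up and 23.7% down). Mmp12 was at 177 and 173 CPM in whole skin and 0.506 and 0.154 CPM in control epidermis (8.99 ± 0.54, adjusted p = 7.41e-07), the largest fitted difference among the members. Mmp13 gave 7.32 ± 1.41 (adjusted p = 0.000749), Mmp3 5.80 ± 0.84 (adjusted p = 9.36e-05) and Timp1 4.63 ± 0.77 (adjusted p = 0.000259). Mmp9 gave 3.80 ± 0.75 (adjusted p = 0.000861) and Mmp14 1.75 ± 0.27 (adjusted p = 0.000175). Mmp11 had 153 counts in whole skin and 2 in control epidermis, a ratio of 62.1 (16.9 to 518), and was called (adjusted p = 9.21e-05). Mmp10 (2.97 ± 1.06, adjusted p = 0.0297) turned to -1.27 with no call (adjusted p = 0.184) without whole skin library 1, and Mmp13 was 3.38 without it. Mmp2, at 61.8 and 77.3 CPM in whole skin and 51.8 and 87.8 CPM in control epidermis, overlapped. The tumor and whole skin libraries enter more than 1 of these comparisons, as do the week 25 epidermis libraries.

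**Figure D5:**
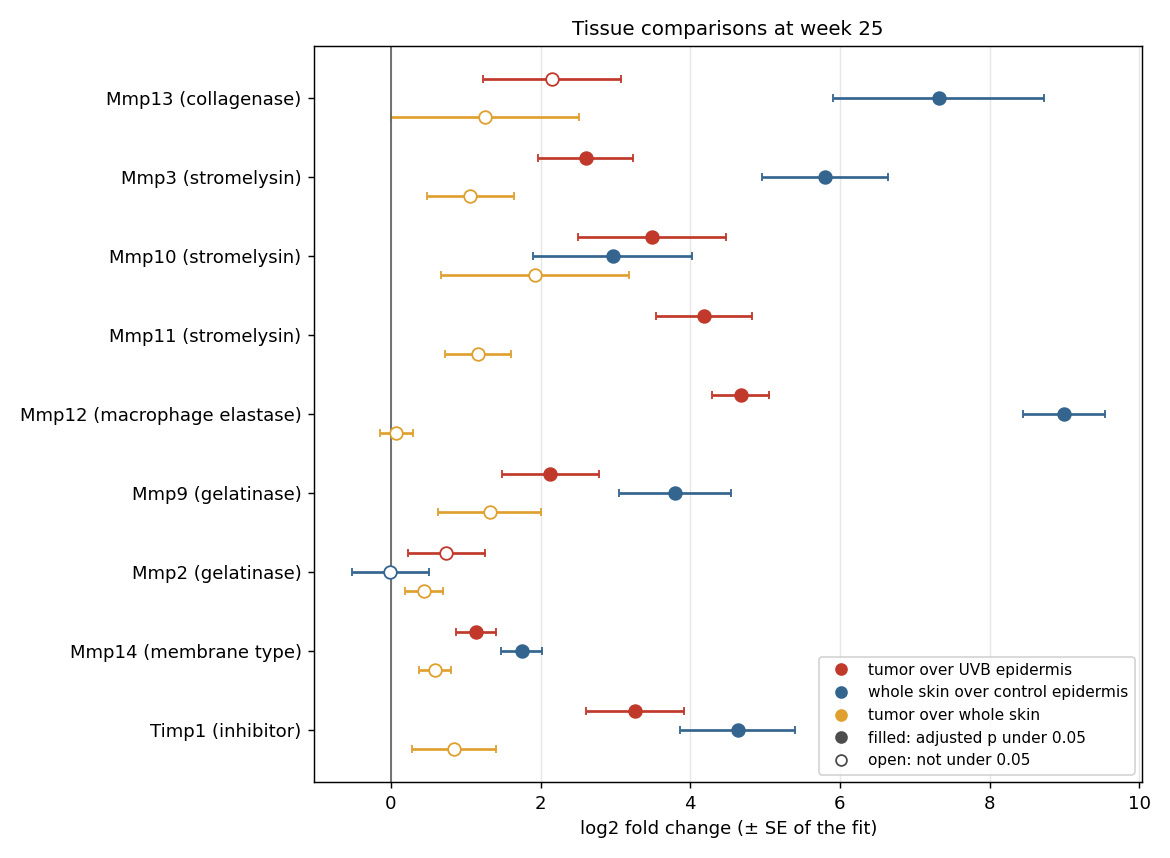
Log2 fold change with the SE of the fit for tumor over UVB epidermis (red), whole skin over control epidermis (blue) and tumor over whole skin (yellow) at week 25; filled points have an adjusted p under 0.05. Mmp11 in whole skin over control epidermis is not drawn because control epidermis held 2 counts. Mmp12 lies at 4.68, 8.99 and 0.07 in these comparisons.

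Whether tumor minus whole skin differed from UVB minus control epidermis at week 25 was tested as an interaction over all 16 libraries. It was lower for 1 of the 10 members, where 0.0926% of genes were called (0.00661% up and 0.0859% down). Mmp12 differed by -4.32 ± 0.71 (adjusted p = 0.0442), its tumor and whole skin libraries overlapping while UVB epidermis was above control epidermis. Mmp13 (-5.17 ± 1.72, adjusted p = 0.201) and Mmp3 (-3.19 ± 1.03, adjusted p = 0.193) had no call. The call of Mmp12 was lost when any of 10 of the 16 libraries was left out in turn, with values between -5.28 and -3.67.

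Genes that act with the members were described from fixed lists. Of 14 other MMP genes, 5 were tested in epidermis, and 0 were called by edgeR at week 2, 15 or 25. Mmp1b, a relative of interstitial collagenase, had 14 and 6 counts in UVB epidermis and 0 and 1 in control epidermis at week 25, and 121 and 119 counts in tumors and 0 and 33 in whole skin. Mmp19 was at 8.93 and 13.9 CPM in tumors and 0.611 and 0.893 CPM in UVB epidermis (3.90 ± 0.60, adjusted p = 0.000399). Mmp24, a membrane-type MMP, was called lower in tumors, with 0 and 1 counts against 12 and 3 in UVB epidermis. Mmp23 (3.38 ± 0.72) and Mmp27 (2.56 ± 0.78) were called higher in tumors than in UVB epidermis, so that 3 of the 14 rose and 1 fell there.

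Among 4 other inhibitors, Timp2 fell at week 2 and 0 of 4 were called at weeks 15 and 25. Timp2, the TIMP that also takes part in activating pro-Mmp2 with Mmp14, was at 91.8 and 65.6 CPM in UVB epidermis and 112 and 202 CPM in control epidermis at week 2 (-1.02 ± 0.29, adjusted p = 0.0366). Timp3, which is bound to the matrix, was at 45.6 and 27.9 CPM in UVB epidermis and 20.6 and 6.93 CPM in control epidermis at week 25 (1.40 ± 0.46, adjusted p = 0.0519). All 4 (Timp2, Timp3, Timp4 and Reck) were called higher in tumors than in UVB epidermis and higher in whole skin than in control epidermis.

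Of 10 genes of the plasminogen system and of MMP activation, 1 rose at week 2 (Serpinb2, 0.89 ± 0.16, adjusted p = 0.00691), 1 rose at week 15 (Serpine2, 4.32 ± 1.01, adjusted p = 0.0449, from 66 and 55 counts in UVB epidermis and 3 and 2 in control epidermis) and 0 were called at week 25. Both encode inhibitors of plasminogen activators. Plaur, the urokinase receptor, was at 21.6 and 24.8 CPM in tumors and 1.53 and 2.68 CPM in UVB epidermis (3.46 ± 0.44, adjusted p = 0.000104).

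Of 12 known inducers of MMP transcription, 0 were called at week 2, 1 rose at week 15 and 2 rose at week 25. Il1b, the cytokine interleukin-1 beta, was at 22.3 and 24.5 CPM in UVB epidermis and 1.69 and 2.62 CPM in control epidermis at week 25 (3.39 ± 0.33, adjusted p = 0.00072). It was also higher at week 15 (1.70 ± 0.32, adjusted p = 0.0243). Ets1, an ETS-family factor, rose by 0.70 ± 0.23 at week 25 (adjusted p = 0.0494). The part of these inducers in the members' values was not tested.

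Among matrix proteins that MMPs cut, 2 fell at week 2. Col4a1, a basement membrane collagen chain, had 1 and 0 counts in UVB epidermis and 25 and 10 in control epidermis at week 2, and Col4a2 had 0 and 0 counts in UVB epidermis and 20 and 2 in control epidermis. At week 25 the fibrillar collagens Col1a1 (4.81 ± 1.02, adjusted p = 0.0106), Col1a2 (4.30 ± 0.77, adjusted p = 0.00585) and Col3a1 (4.81 ± 0.88, adjusted p = 0.00629) rose. The 3 fibrillar collagens are also among the fibroblast markers. Col3a1 was at 55.0 and 11.3 CPM in UVB epidermis at week 25, with library 0 the higher one, and at 2.02 and 0.308 CPM in control epidermis.

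Genes whose pattern over the 8 groups was most like that of a member were named by Pearson's r over the 8 group means of log2(CPM + 1), as a description over groups that differ mostly by tissue. Mmp13 was nearest to Ms4a4c and Ddah1 (r = 0.987 each), Mmp3 to Batf (0.995) and Crabp1 (0.990), Mmp10 to Hrh1 (0.983) and Col13a1 (0.952), and Mmp11 to Nid2 and Eng (0.998 each). Mmp12 was nearest to Lpin1 (0.996) and Zeb2 (0.995), Mmp9 to Lpin2 and Neu1 (0.975 each), Mmp2 to Mcph1 (0.962) and Nfkbid (0.961), and Mmp14 to Nckap5l (0.999) and Abi3 (0.985). Timp1 was nearest to Ncf1 and Clec4a3 (0.993 each). The low counts of Mmp8 gave Retnlg (0.875) and Prg4 (0.857).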

How the data were processed

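Per the file headers, the authors deposited whole-number counts of reads per gene with mm10 coordinates, from alignments with duplicates removed. Duplicate removal can cap counts of abundant genes. Per the submitters' processing notes, HISAT2, Picard, featureCounts and DESeq2 were used. Their versions, the read length, the strand setting and the handling of multiply mapping reads are not given in the sources used.

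The main test was edgeR 4.0.16 (R 4.3.3) on the counts as deposited. The filter was filterByExpr, with a minimum count of 10 and a minimum total of 15, and the scaling was TMM. Groups were compared with the quasi-likelihood F test and Benjamini-Hochberg adjustment across all genes, without a replicate block. The 12 epidermis libraries shared 1 fit for each week, for changes between weeks and for controls over time (13478 genes, 6 degrees of freedom). An additive fit of week and treatment on them gave the average (8 degrees of freedom). The tumor and whole skin pair was fitted alone (14661 genes, 2 degrees of freedom). Tissue comparisons and their interaction drew on all 16 libraries (15126 genes, 8 degrees of freedom). Fitted log2 values add a prior count of 0.125. Where a group had 1 to 3 counts, the ratio with an exact 95% interval, which covers counting error only, is given instead.

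Totals of 2905165 to 7959503 counts put 1 count at about the lowest CPM values printed. The steps were tested on simulated data. The alternatives were DESeq2 1.42.0, RLE size factors, no scaling, cyclic loess offsets, no filter, a replicate block, other sets of libraries and each library left out. The members and lists were chosen with earlier results of these data known. All 10 members are named, and from each other list up to 4 genes with the smallest p; likeness names the 2 genes with the highest r among 12984 with a mean of at least 5 CPM in a group, leaving out predicted genes. Mmp1b was named after its values were seen. A gene of the matrix list is not reported here, so that list is given without its full count. RefSeq promoter windows were matched by symbol, for 8 of the 10 members.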

Additional observations from a re-analysis of the deposited data

Results flagged for a closer look

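The effect of UVB on epidermis differed between week 25 and week 2, by a test of the difference itself in edgeR's quasi-likelihood fit, for Mmp13 (6.82 on the log2 scale), Mmp12 (6.24), Mmp9 (5.33), Mmp10 (4.34), Timp1 (4.22) and Mmp14 (2.41). Mmp9, Mmp10 and Mmp14 were called lower at week 2. Fitted levels in control epidermis were lower at week 25 than at week 2 for each of the members with a different effect, with a call for Mmp12 only. The call for the difference in effect was lost in 14 of 19 alternatives for Timp1 and in 8 for Mmp10. It was lost in 4 for Mmp14, 3 for Mmp13 and 2 each for Mmp9 and Mmp12. Fibroblast markers had a median log2 fold change of -2.22 at week 2 and 4.01 at week 25, and macrophage markers -0.59 and 3.67. Hair follicle markers were lower in UVB epidermis at both weeks (medians -4.54 and -2.76). The part of these cells in the members' values was not tested.

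For Mmp12, tumor minus whole skin differed from UVB minus control epidermis at week 25 by -4.32 on the log2 scale. The call was lost in 11 of 22 alternatives. The control epidermis libraries held 3 and 1 counts of Mmp12.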

How the results depend on the processing

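Counts of members called kept within 1.5 times their value under the alternatives that were run, with these exceptions. With only the 4 libraries compared, week 2 gave 1. The mean of the 3 week contrasts gave 2 (Mmp12 and Mmp13) for the average over weeks. All 16 libraries in 1 fit gave 3 for the UVB effect at week 25 minus week 2. DESeq2, cyclic loess offsets and no filter each gave 2 for controls over time. Cyclic loess offsets gave 0 for the interaction of tissue and UVB. With each library left out in turn, the counts ran from 0 to 3 at week 2, 2 to 6 at week 25, 0 to 6 for week 25 minus week 2, 0 to 2 for controls over time, 0 to 8 for tumor against whole skin, 3 to 8 for tumor against UVB epidermis, 7 to 8 for whole skin against control epidermis and 0 to 3 for the interaction. The replicate block gave 3 for tumor against whole skin (Mmp10 3.03, Mmp13 2.58 and Mmp9 1.70), and 4 at week 2 and 6 at week 25, and it changed none of the other counts by over 1.5 times. The deviations of libraries with the same number correlated at week 25 (r = 0.227) but not at weeks 2 (-0.103) and 15 (-0.0329) or for tumor and whole skin (-0.0372), so the numbers are not taken as pairs. Log2 fold changes that changed sign had no call, except that of Mmp10 in whole skin against control epidermis. With cyclic loess offsets these were Mmp3 at week 2 (0.093), Mmp13 at week 15 (-0.020), Mmp14 averaged over weeks (-0.020), Mmp3 in controls over time (0.070) and Mmp2 in whole skin against control epidermis (0.17). Averaged over weeks, Mmp9 turned to 0.12 without scaling, 0.010 without a filter and 0.034 as the mean of the 3 week contrasts. Mmp2 in whole skin against control epidermis turned to 0.025 with DESeq2, 0.022 with RLE factors and 0.38 without scaling, where the median of all genes was 0.56 against 0.18 with TMM. With each library left out in turn, the ranges that crossed 0 were Mmp13 at week 2 (-0.56 to 0.11); Mmp2 (-0.35 to 0.24), Mmp3 (-1.61 to 0.85), Mmp13 (-0.68 to 1.93), Mmp14 (-0.20 to 0.63) and Timp1 (-0.83 to 1.06) at week 15; Mmp2 at week 25 (-1.38 to 0.37); Mmp9 (-0.60 to 0.45), Mmp14 (-0.11 to 0.32) and Timp1 (-0.017 to 0.75) averaged over weeks; Mmp3 (-1.34 to 1.07) and Mmp13 (-0.31 to 2.24) for week 15 minus week 2; Mmp2 for week 25 minus week 2 (-0.15 to 2.08) and in controls over time (-0.22 to 0.53); Mmp12 in tumor against whole skin (-0.091 to 0.24); Mmp2 (-0.37 to 0.39) and Mmp10 (-1.27 to 3.96) in whole skin against control epidermis; and Mmp10 for the interaction (-0.47 to 4.75). The causes were not tested. Without scaling, the median of all genes moved by over 0.1 in other comparisons too, to 0.21 against 0.013 for week 25 and to 0.11 against -0.028 for week 2. Counts over all genes also moved by more than 1.5 times. At week 2, 2403 genes became 684 with only the 4 libraries. At week 15, 471 became 1000 with DESeq2, 1146 without a filter and 234 with all 16 libraries. At week 25, 2898 became 4562 with only the 4 libraries and 1779 with all 16. For week 15 minus week 2, 0 became 49 with DESeq2 and 26 without a filter. For week 25 minus week 2, 1067 became 1758, 1612 and 517 with DESeq2, without a filter and with all 16 libraries. Controls over time went to 2959, 2808 and 864 under the same alternatives, against 1848. Tumor against whole skin had 0, and 63 with DESeq2, 1 without a filter, 235 with the replicate block and 7 with all 16 libraries. Tumor against UVB epidermis had 4469, and 2942 with loess and 6974 with only the 4 libraries. The interaction had 14, and 287 with DESeq2, 2 with loess and 112 without a filter. With each library left out in turn, counts over all genes ran from 125 to 4377 at week 2, 26 to 1463 at week 15, 519 to 3936 at week 25, 0 to 800 for week 15 minus week 2, 71 to 3454 for week 25 minus week 2, 155 to 4588 for controls over time, 5 to 5488 for tumor against whole skin, 2089 to 5477 for tumor against UVB epidermis and 0 to 1265 for the interaction. Depth limits Mmp8, Mmp11, Mmp13, Mmp3, Mmp10 and Timp1, at 0 to 20 counts in each control epidermis library, and Mmp12, at 1 to 6 counts in 5 of the 6.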
